A study of Ptychodera flava with 31 samples.

Results

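The adult-only transcripts of the acorn worm Ptychodera flava were defined by their level over the life cycle, and 166 of 35854 transcript models (0.463%) qualified. A model was taken when it reached at least 20 TPM in the adult and stayed below 1 TPM, as a stage mean, at each of the 15 other stages. TPM is the share of a model among all transcripts of a library after scaling by model length. The rule used adult and non-adult levels together, so the gap between them is a description and carries no test. The name holds for these thresholds only, since all but 5 of the 166 had at least some estimated count outside the adult.

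Ptychodera flava is a hemichordate, a marine relative of echinoderms and chordates, whose larva and adult differ in body form. Its embryo becomes a ciliated planktonic larva, the tornaria, which swims and feeds before it transforms into a burrowing worm. The adult body has a proboscis, a collar and a trunk with gill slits, gut regions and gonads, and much of it is built or enlarged during and after the transformation. Transcripts that appear late in such a life cycle can belong to organs, secretions or cell types that the larva lacks, but the models here carry numbered identifiers only. None of the identifiers occurred among the 38920 genes of the reference table, so that no gene name, function, position or sequence is given for any model. Markers of adult tissues could not be looked up for the same reason.

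All samples were whole wild-type animals, and total RNA was sequenced as stranded, polyA-selected libraries. The 31 libraries covered the unfertilized egg (1 library), 16-32 cell embryos (2), early and late blastulae (2 each), early gastrulae (3), mid gastrulae before (3) and after (2) migration, and late gastrulae (2). Later stages were tornariae at 72 hours post fertilization (hpf, 2 libraries), the Heider, Meschnikoff, Krohn, Spengel and Agassiz larvae (2 each), transforming larvae (1) and the adult (1). No treatment or genetic change separates the groups, and neither the sex nor the number of animals behind the adult library was given. With 1 adult library, the adult stage and that library cannot be told apart. In bulk samples, fewer cells of a type and less RNA per cell cannot be told apart either.

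Library totals ranged from 11539946 to 17288661 estimated counts, and the adult library held 13621556. For the 166 models, 1 TPM corresponded to 0.676 to 61.9 counts in the adult (median 8.41) and to 0.519 to 72.3 counts in the other libraries (median 8.53), depending on model length and depth. Levels well below 1 TPM outside the adult therefore rest on a handful of counts, and a level of 0 allows up to 3 counts per library. Intervals and such limits cover counting error only.

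Of the models expressed at 20 TPM or more in the adult, most were also expressed through the rest of the life cycle. There were 6151 such models, of which 4137 (67.3%) reached 1 TPM at all 15 other stages. The adult-only models made up 2.70% of the 6151. Models that reached 1 TPM at exactly 1 other stage numbered 57, fewer than the 166 that reached it at none, and 25 of these 57 did so in transforming larvae. The plot of breadth shows the steps in between, where each number of stages up to 14 held between 57 and 240 models.

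**Figure D1:**
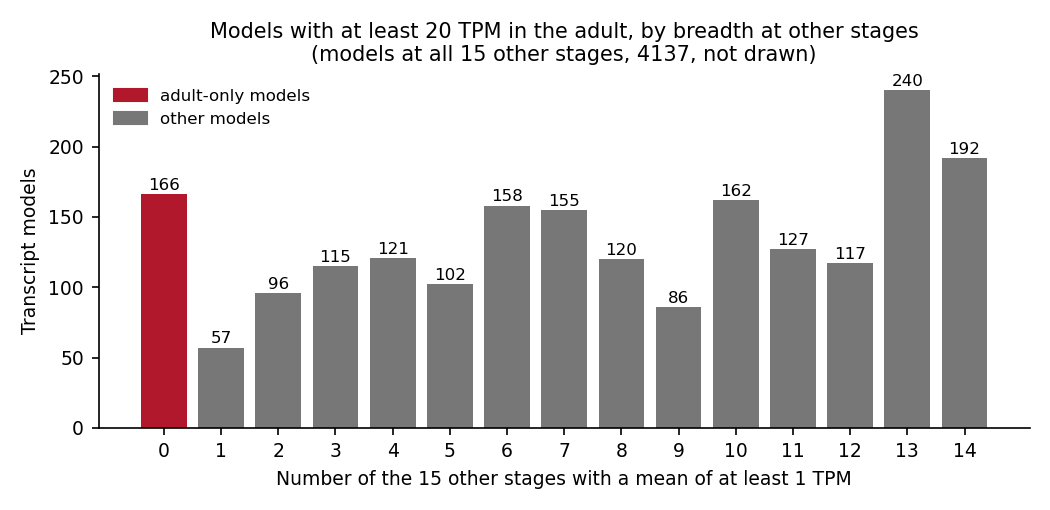
Number of transcript models with at least 20 TPM in the adult (vertical axis) by the number of other stages at which the stage mean reached 1 TPM (horizontal axis). The 166 adult-only models stand at 0 stages (red), the bar at 1 stage holds 57 models, and the 4137 models at all 15 other stages are not drawn.

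The same rule applied to each other stage in turn selected almost nothing. No model was at least 20 TPM at any 1 of the 14 stages before the transforming larva and below 1 TPM at all others. Transforming larvae had 2 such models, TCONS_00006415 at 97.5 TPM and TCONS_00045013 at 25.6 TPM, against 166 for the adult. No model reached 20 TPM in both the adult and transforming larvae while staying below 1 TPM elsewhere. Of the 6151 models at 20 TPM or more in the adult, 1734 (28.2%) were below 1 TPM in the egg, 334 (5.43%) in Agassiz larvae and 317 (5.15%) in transforming larvae. The stages closest to the adult thus shared most of its abundant transcripts. The 166 were below 1 TPM there too, as the rule requires.

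Values close to the thresholds show how sharp the list is. The lowest adult levels inside it were 20.1 TPM for TCONS_00037857, 20.3 TPM for TCONS_00034379 and 20.4 TPM for TCONS_00029843. Just outside stood TCONS_00000882, TCONS_00038837 and TCONS_00036754 at 19.8, 19.7 and 19.6 TPM. On the other threshold, the highest stage means inside were 0.993 TPM for TCONS_00001510, 0.991 for TCONS_00005668 and 0.989 for TCONS_00000843, and the nearest outside were 1.02, 1.03 and 1.04 TPM for TCONS_00011888, TCONS_00052250 and TCONS_00046198. No empty zone separates members from other models at either limit. With an adult minimum of 10 TPM the list would hold 284 models, and with 50 TPM it would hold 78. Holding the other stage means below 0.5 TPM would leave 110, and 140 of the 166 were below 1 TPM in every single library outside the adult.

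Within the adult, the 166 models spanned a range of more than 2 orders of magnitude. Adult levels ran from 20.1 to 2622 TPM, with a median of 45.1 and quartiles of 32.1 and 154 TPM. At least 100 TPM was reached by 58 models, at least 500 TPM by 22 and at least 1000 TPM by 12. Together they held 37877 TPM, which is 3.79% of all transcripts of the adult library, or 2.50% of its estimated counts. The 10 most abundant held 44.3% of that sum, so a small number of models carries much of the adult-only signal. Of the members, 5 ranked among the 100 most abundant models of the adult library, and 46 ranked among the first 1000.

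**Figure D2:**
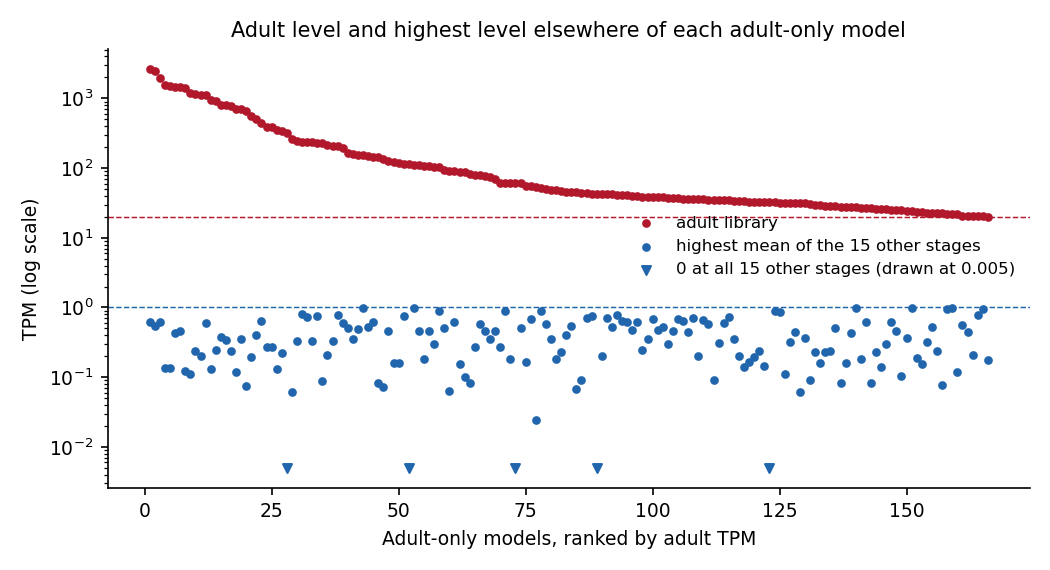
TPM on a log scale (vertical axis) of each of the 166 adult-only models, ranked by adult level (horizontal axis), with red points for the adult library and blue points for the highest mean among the 15 other stages. Dashed lines mark the limits of 20 and 1 TPM, triangles mark the 5 models at 0 in all other libraries (drawn at 0.005), and the 2 clouds of points stay apart at every rank because the rule separates them.

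TCONS_00023261, the most abundant, stood at 2622 TPM in the adult and at no more than 0.643 TPM in any of the 30 other libraries. Its 21 counts outside the adult were spread over 11 libraries, all of them mid gastrula or later. TCONS_00014186 had 2441 TPM in the adult, 0.544 TPM in transforming larvae and less in every other library. TCONS_00049086 had 1971 TPM in the adult, and its highest levels elsewhere were 0.736 and 0.851 TPM in mid gastrulae before migration (replicates 1 and 3). The 3 most abundant models thus had their small signal outside the adult at different stages.

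TCONS_00021805 had 1555 TPM in the adult, with 5 counts in the 30 other libraries and no more than 0.165 TPM in any. TCONS_00038114 had 1497 TPM in the adult and at most 0.266 TPM elsewhere. TCONS_00038118, a near neighbour by number, had 1449 TPM in the adult and a trace of up to 0.751 TPM in a Meschnikoff library. These 3 models were of similar length, 849, 860 and 930 bases, and each had 1 count in transforming larvae. TCONS_00046693 had 1442 TPM in the adult and counts in 23 of the 30 other libraries, the broadest trace among the 10 most abundant, with its highest value of 0.682 TPM in a late blastula library.

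TCONS_00014185 and TCONS_00014187 had 1424 and 1212 TPM in the adult and 0 counts in transforming larvae. Outside the adult they had 14 counts in 8 libraries and 2 counts in 2 libraries. TCONS_00037999 had 1173 TPM in the adult and at most 0.234 TPM elsewhere. Outside the 10 highest by TPM, 3 models had the most adult counts. These were TCONS_00012965 with 12206 adult counts (668 TPM), TCONS_00014188 with 10617 (961 TPM) and TCONS_00042765 with 7947 (808 TPM), none of which passed 0.469 TPM in another library.

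The 5 models with no counts in any of the 30 other libraries were of moderate abundance. TCONS_00016224 had 319 TPM in the adult, the highest of the 5, and is also among the 2 shortest members at 253 bases. TCONS_00028269 had 114 TPM, TCONS_00024367 60.6 TPM, TCONS_00036910 42.9 TPM and TCONS_00034092 32.7 TPM in the adult. Set against 3 counts over all 30 other libraries, their adult levels in depth-scaled counts were at least 1337-fold (TCONS_00024367) to at least 3785-fold (TCONS_00028269) higher. Including these 5, 28 models had at most 3 counts outside the adult. Across the 166 members, the adult level and the mean level elsewhere had a Spearman rho of -0.04, a description over models that share the same libraries.

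The rule keeps the 166 models below 1 TPM outside the adult, and their traces within that limit were as follows. Their highest stage mean outside the adult had a median of 0.346 TPM, was below 0.1 TPM for 22 models and below 0.5 TPM for 110. Summed over the 166, the level was 3.25 to 3.85 TPM in the 3 libraries of eggs and 16-32 cell embryos. It was 5.69 to 7.09 TPM in blastulae, 7.44 to 14.6 TPM in gastrulae, 9.06 to 31.2 TPM in larvae and 24.9 TPM in transforming larvae. The sum thus tended upward through development but stayed more than 1000 times below the 37877 TPM of the adult.

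The 5709 models below 1 TPM at all 16 stages, which are bounded in the same way outside the adult, also tended upward through development. In the egg the means were 0.0211 TPM for the adult-only models and 0.0317 TPM for these low models. Outside the adult, their ratio was widest in late blastula replicate 1, at 0.0343 TPM for the adult-only models and 0.0722 TPM for the low models. Their difference outside the adult was widest in early gastrula replicate 3, at 0.0457 and 0.0926 TPM. In larvae the medians over 12 libraries were 0.112 TPM for the adult-only models and 0.131 TPM for these low models. In transforming larvae the means were 0.150 TPM for the adult-only models and 0.133 TPM for the low models. In the adult they were 228 TPM for the adult-only models and 0.225 TPM for the low models. The part of this shared course in the traces of the adult-only models was not tested.

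**Figure D3:**
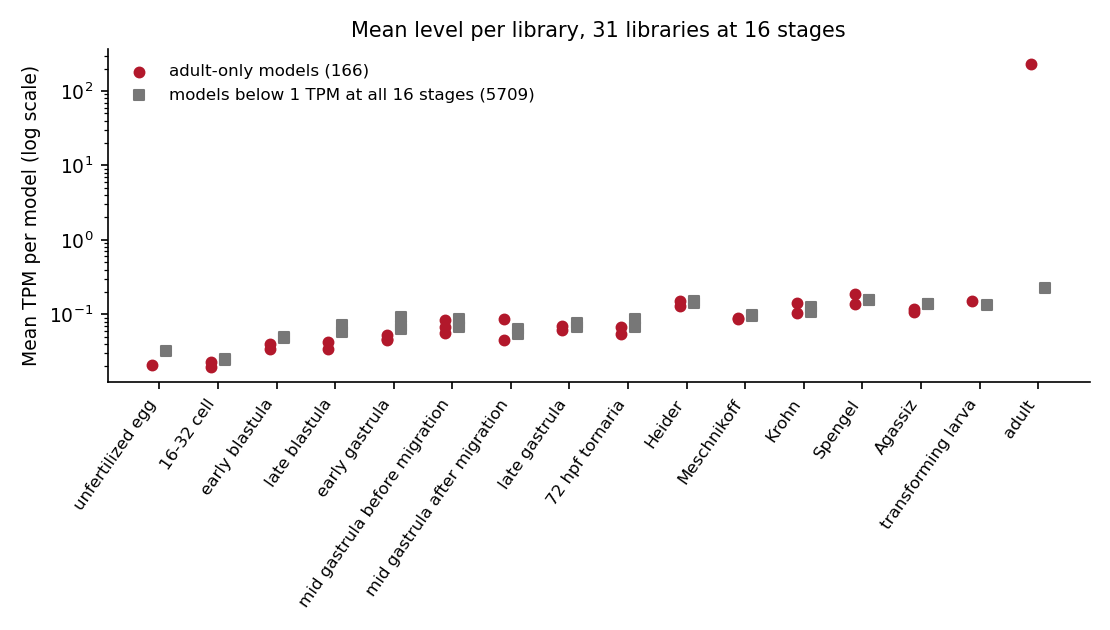
Mean TPM per model on a log scale (vertical axis) in each of the 31 libraries, by stage (horizontal axis), for the 166 adult-only models (red circles) and the 5709 models below 1 TPM at all 16 stages (grey squares). Outside the adult both sets lie below 0.2 TPM, with the adult-only models at 0.0343 and the low models at 0.0722 TPM in late blastula replicate 1, and in the adult they stand at 228 and 0.225 TPM.

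A few models made up much of the signal outside the adult. All 30 other libraries together held 5601 counts of the 166 models, of which TCONS_00005668 alone held 15.8% and the 5 largest 36.5%. TCONS_00005668 is the longest member at 5834 bases, so that a low TPM gives it many counts. It had 883 counts outside the adult, in all 30 libraries, and at most 1.28 TPM in any. Its adult level was 23.9 TPM. TCONS_00050544, with 22.04 TPM in the adult, was likewise present in all 30 other libraries, at 0.176 to 1.05 TPM. TCONS_00054024, with 32.4 TPM in the adult, was the only other model present in all 30, on 354 counts and at up to 1.34 TPM. Over the 166 models the median total outside the adult was 13.97 counts.

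Single libraries above 1 TPM occurred for 26 of the 166 models. TCONS_00001510 reached 1.61 TPM in Meschnikoff replicate 2, against 0.373 TPM in replicate 1 and 27.2 TPM in the adult. TCONS_00000843 had 1.01, 1.96 and 0 TPM in the 3 libraries of mid gastrulae before migration, and 111 TPM in the adult. TCONS_00035216, the shortest member at 222 bases, reached 1.76 TPM in late blastula replicate 2 on 1 count, its only count outside the adult. In a model this short, 1 count was enough to pass 1 TPM.

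Transforming larvae are the stage before the adult in the series, and the rule holds each of the 166 models below 1 TPM there. In that library 79 of the 166 models had 0 counts, 57 had 1 to 3 and 30 had more than 3, with a maximum of 22. It was the stage with the highest mean outside the adult for 33 models, while Spengel larvae were for 30 and Heider larvae for 23. The level of transforming larvae is that of 1 library and the other 2 are means of 2 libraries, so that these numbers are not compared. For the 79 models at 0, adult levels in depth-scaled counts were at least 14.7-fold to at least 6430-fold higher, with 3 counts set for the transforming larvae. For the 30 with more than 3 counts the ratio ran between 22.7 and 4862, with a median of 115. The rule sets at least 20 TPM in the adult and below 1 TPM in transforming larvae. No member could thus be near its adult level there, and the ratios describe the gap only.

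The models with the highest levels in transforming larvae were not those with the highest adult levels. TCONS_00034379 had 20.3 TPM in the adult and 0.967 TPM in transforming larvae, with 0.645 and 0.289 TPM in the 2 Agassiz libraries and no more than 0.152 TPM before. Its ratio of adult to transforming larva was 22.7 (95% counting interval 14.5 to 37.6). TCONS_00040995 had 43.1 TPM in the adult and 0.766 TPM in transforming larvae, but a Heider library was higher at 0.998 TPM. TCONS_00018146 had 237 TPM in the adult and 0.733 TPM in transforming larvae, a ratio of 354 (95% counting interval 138 to 1301). TCONS_00016424 had 43.4 TPM in the adult, 0.716 TPM in transforming larvae, 0.399 TPM in 1 Agassiz library and 0.246 TPM in 1 Spengel library, and 0 in the other 27 libraries. TCONS_00034379 and TCONS_00016424 had most of their trace at the last stages before the adult.

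Contrasts that leave out the adult were tested with edgeR's quasi-likelihood test on all 30661 models that passed a filter on low counts. Calls needed a p under 0.05 after Benjamini-Hochberg adjustment over all models and at least a 2-fold difference. All 166 passed the filter, because a level in 1 stage is enough and the adult provided it. On the libraries of a contrast alone, 4 to 12 of the 166 passed. The rule holds both sides of every such contrast below 1 TPM on average, so these tests bear on traces only. Counts of members called are therefore descriptions of traces, and nothing is read from their share beside that of all models. The spread used (a trended dispersion) also follows a model's average level over all 31 libraries, which the adult raised for the members. For a member below the filter on the libraries compared, call and adjusted p thus depend on adult values that the rule used. They describe its trace and are no evidence of a difference between stages. A contrast of stage means can also not call a model that has a stage with 0 counts on each side, which applied to many members. A stage at 0 on only 1 side lowers the mean of that side and can favour a call. TCONS_00009667, at 0 in Spengel larvae, was called lower in larvae than in gastrulae (log2 fold change -1.30). Its pooled ratio was 0.596 (95% counting interval 0.338 to 1.05).

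Between transforming larvae and Agassiz larvae, none of the 166 models was called, where 2.36% of all models tested were (0.998% higher and 1.37% lower). Of the 166, 8 had an unadjusted p under 0.05, the lowest adjusted p was 0.302, and DESeq2's Wald test called 0 with 1 at an unadjusted p under 0.05. DESeq2's Wald test called 3.78% of all models. Counts were 0 on both sides for 51 members. Among the 48 members with more than 3 counts on a side, 34 (70.8%) were higher and 14 lower in transforming larvae. Of all models tested with more than 3 counts on a side, 55.7% were higher. The median log2 ratio was 0.57 over these members, against 0.09 over all models tested. The comparison rests on 1 library of transforming larvae, taken to vary like the other stages. On the libraries compared alone, 8 members passed the filter.

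Late larvae (Spengel and Agassiz, 4 libraries) were compared with early larvae (72 hpf tornaria and Heider, 4 libraries), and 17 of the 166 models were called in the fit over all libraries. Of these, 11 were higher and 6 lower in late larvae, where 30.8% of all models tested were called (19.1% higher and 11.7% lower). Without the adult and the other stages, 7 members passed the filter and 5 were called, where 33.3% of all models tested were. All 5 were among the 17, so that most of the 17 could not be tested on these libraries alone. A stage at 0 on each side prevented a call for 68 members, and among the other 98 the 17 calls made up 17.3%, against 31.6% of all models without such stages. The count was 8 with DESeq2's Wald test, where 26.8% of all models were called, and 11 without Spengel replicate 1, where 27.5% were. With 1 coefficient per side, a fit chosen after seeing the data, it was 15 (11 higher and 4 lower), where 27.7% of all models were called (16.8% higher and 10.9% lower).

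TCONS_00055518 had 0.186, 0.111, 0.800 and 0.486 TPM in late larvae (2 Spengel, then 2 Agassiz libraries) and 0, 0, 0.0244 and 0.0538 TPM in early larvae (2 tornaria, then 2 Heider libraries). All late libraries were above all early ones, on 58 and 3 counts, a ratio of 18.2 (95% counting limits 5.93 and 90.9, adjusted p by edgeR = 0.000795). It was also called on only the libraries compared (adjusted p by edgeR = 0.00297). Its level in mid gastrulae before migration, 0.276 to 1.13 TPM, overlapped that of late larvae. TCONS_00012771 had 0.453, 0.773, 0.244 and 0.274 TPM in late larvae and 0 in all 4 libraries of early larvae. It was at least 9.42-fold higher in late larvae with 3 counts set for the early ones (edgeR adjusted p = 0.00266). It was not called by DESeq2's Wald test (adjusted p = 0.132). On only the libraries compared it did not pass the filter, so that it was not tested there. In transforming larvae TCONS_00012771 was back at 0 counts, and its adult level was 39.4 TPM.

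TCONS_00028341 had 0.731, 0.942, 0.701 and 0.158 TPM in late larvae and 0.0748, 0, 0.0747 and 0 TPM in early larvae. The groups did not overlap, and the 30 and 2 counts gave a ratio of 14.1 (95% counting limits 3.59 and 122, adjusted p by edgeR = 0.00464). Without Agassiz replicate 1 the call was lost at a log2 fold change of 2.74 (adjusted p = 0.0507). Like TCONS_00012771, TCONS_00028341 did not pass the filter on only the libraries compared. The highest stage of TCONS_00028341 was Krohn, at 0.636 and 1.15 TPM, and the adult had 52.3 TPM.

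Among the 6 that were lower in late larvae, TCONS_00049326 was at 0 in all 4 late libraries and at 0.177, 0.0676, 0.472 and 0.130 TPM in early larvae. It was at least 4.95-fold lower in late larvae with 3 counts set for them (edgeR adjusted p = 0.00391), and its adult level was 103 TPM. TCONS_00049326 did not pass the filter on only the libraries compared, while the next 2 models did and were called there. TCONS_00032462 had 0.634, 0.0667, 0 and 0.0614 TPM in late larvae and 0.291, 0.867, 0.699 and 0.642 TPM in early larvae. These groups overlapped through Spengel replicate 1, and the log2 fold change was -2.51 (SE 0.71, adjusted p by edgeR = 0.00783). With 1 coefficient for each side of the contrast TCONS_00032462 was not called (adjusted p = 0.0609). TCONS_00005668 had 0.0479, 0.233, 0.120 and 0.261 TPM in late larvae and 0.640, 0.516, 0.454 and 0.355 TPM in early larvae, without overlap. Its log2 fold change was -1.72 (SE 0.56, adjusted p by edgeR = 0.0169), and the call was lost without Spengel replicate 1 (-1.37, adjusted p = 0.0801) or Agassiz replicate 1 (-1.49, adjusted p = 0.0694).

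**Figure D4:**
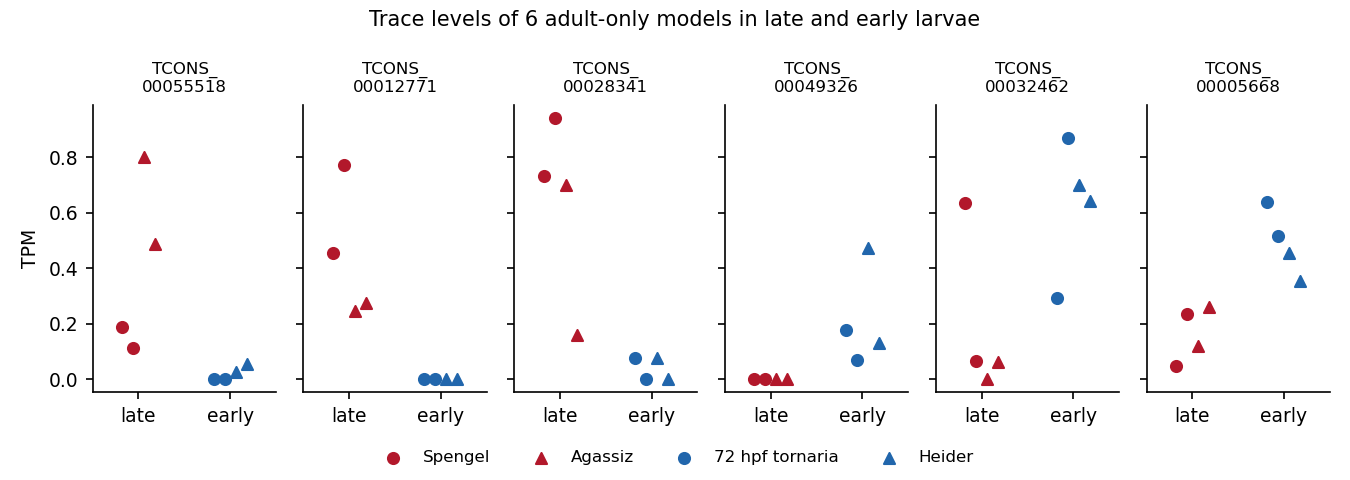
TPM (vertical axis) of 6 adult-only models in each library of late larvae (red, left) and early larvae (blue, right), with circles and triangles for the 2 stages of each side. TCONS_00055518, TCONS_00012771 and TCONS_00028341 were called higher and the other 3 lower in late larvae, all below 1 TPM, and only TCONS_00032462 has overlapping groups among these 6.

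Larvae as a whole (6 stages from 72 hpf tornaria to Agassiz, 12 libraries) were compared with gastrulae (4 stages, 10 libraries), and 19 members were called in the fit over all libraries. Of these 13 were higher and 6 lower in larvae, where 47.9% of all models tested were called (29.8% higher and 18.1% lower). A stage at 0 on each side kept 125 members from being called, and the 19 made up 46.3% of the remaining 41, against 53.1% of all models without such stages. With 1 coefficient for all larvae and 1 for all gastrulae, a fit chosen after seeing the data, 48 members were called, 40 higher and 8 lower, and 17 of the 19 were among them. All models reached 53.3% in that fit (35.8% higher and 17.5% lower). On only the libraries compared, 12 members passed the filter and 5 were called, where 51.0% of all models tested were. Of these 5 members, 4 were among the 19. Most of the 19 thus were not called on these libraries alone, and the number of members called depends on how stages without counts are treated.

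Over the 128 members with more than 3 counts on a side, 89 (69.5%) were higher and 39 lower in larvae. Of all models tested with more than 3 counts on a side, 59.1% were higher. The median log2 ratio of these members was 0.88, with sides at 0 counts set to 3, against 0.41 over all models tested. The median fitted log2 fold change of all models was 0.38, and DESeq2's size factors moved it to 0.63. The median over all models thus depends on the scaling, which enters the members' median as well.

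TCONS_00040686 had 0 to 0.531 TPM in the 12 larval libraries (median 0.155) and 0 in all 10 gastrula libraries. It was at least 6.80-fold higher in larvae with 3 counts set for the gastrulae (edgeR adjusted p = 0.000999). Its larval counts, 33 in all, came from 11 of the 12 libraries, and it had none in the egg, the earlier embryos or transforming larvae. The call was lost without Heider replicate 1, which leaves the Heider stage at 0 counts. TCONS_00001556 had 0 to 0.811 TPM in larvae (median 0.155) and 0 to 0.127 TPM in gastrulae (median 0), a log2 fold change of 3.02 (SE 0.74, adjusted p by edgeR = 0.00193). Most larval libraries were above the gastrula range, and without 72 hpf tornaria replicate 2 it was not called (log2 fold change 2.50, adjusted p = 1). TCONS_00051578 had 0 to 1.15 TPM in larvae (median 0.428) and 0 in all gastrula libraries, at least 7.42-fold higher in larvae (edgeR adjusted p = 0.00239). The call of TCONS_00051578 was lost without Heider replicate 1 or Agassiz replicate 1, each of which leaves its stage at 0. None of these 3 models was tested on only the libraries compared, where their counts were below the filter. Their adult levels were 27.3, 38.1 and 115 TPM.

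TCONS_00005668, lower in late than in early larvae, was also lower in larvae than in gastrulae. Its level was 0.0454 to 0.640 TPM in larvae (median 0.247) and 0.356 to 1.28 TPM in gastrulae (median 0.834). On 215 and 496 counts the log2 fold change was -2.20 (SE 0.33, adjusted p by edgeR = 4.99e-06), and it was called with every library left out in turn and in every other fit tried. In eggs and 16-32 cell embryos it stood at 0.0555 to 0.0768 TPM, and its highest stage mean before the adult was in mid gastrulae after migration. No other named member had a trace with this many counts behind it.

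TCONS_00000843 had 0 to 0.496 TPM in larvae (median 0) and 0 to 1.96 TPM in gastrulae (median 0.796). Only 1 of 12 larval libraries, 72 hpf tornaria replicate 1, held any counts, against 8 of 10 gastrula libraries, and the pooled ratio was 0.0399 (95% counting interval 0.00463 to 0.157, edgeR adjusted p = 0.00211). It was not called by DESeq2's Wald test (adjusted p = 0.334) or without late gastrula replicate 2 (log2 fold change -3.08, adjusted p = 1). TCONS_00056380 had 0 to 0.106 TPM in larvae (median 0.0629) and 0 to 0.447 TPM in gastrulae (median 0.211). Its log2 fold change was -2.24 (SE 0.63, adjusted p by edgeR = 0.00364), and without replicate 2 of mid gastrulae before migration it was -1.09 and not called. TCONS_00000843 and TCONS_00056380 were also below the filter on only the libraries compared, and their adult levels were 111 and 26.5 TPM.

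Gastrulae (10 libraries) were compared with blastulae (4 libraries), and the fit over all libraries called 3 members, 1 higher and 2 lower in gastrulae. On only the libraries compared, 4 members passed the filter and edgeR called 0, with 1 at an unadjusted p under 0.05. There 38.2% of all models tested were called. Of all models tested 29.6% were called in the fit over all libraries (19.1% higher and 10.6% lower). A stage at 0 on each side prevented a call for 133 members, and the 3 made up 9.09% of the other 33, against 35.6% of all models without such stages. With 1 coefficient per side 6 members were called, 4 higher and 2 lower, where all models reached 27.6% (18.2% higher and 9.41% lower). The count was 5 without early gastrula replicate 3, replicate 2 of mid gastrulae before migration, replicate 3 of mid gastrulae after migration or late gastrula replicate 1, and 7 without replicate 3 of mid gastrulae before migration. Numbers this small do not order the stages.

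TCONS_00032462 had 0 to 0.340 TPM in gastrulae (median 0.137) and 0 in the 4 blastula libraries. On 22 counts it was at least 2.30-fold higher in gastrulae with 3 counts set for blastulae (edgeR adjusted p = 0.0182), and the call was lost without replicate 2 of mid gastrulae after migration. TCONS_00046693, with 1442 TPM in the adult, had 0 to 0.327 TPM in gastrulae (median 0.0785) and 0.296, 0.135, 0.682 and 0.236 TPM in blastulae. The groups overlapped, and the log2 fold change was -2.33 (SE 0.68, adjusted p by edgeR = 0.00745), lost without early blastula replicate 1 (-2.02, adjusted p = 0.0965) or late blastula replicate 1 (-1.86, adjusted p = 0.0736). None of the 3 called members passed the filter on only the libraries compared, so that none was tested there. TCONS_00036194 had 1 count in gastrulae and 7 in blastulae, a ratio of 0.0448 (95% counting limits 0.000994 and 0.349, adjusted p by edgeR = 0.0346). Its call was lost with DESeq2's Wald test (adjusted p = 0.422), with edgeR's default dispersion (adjusted p = 0.0735) and with the replicate number as a block (adjusted p = 0.0802). It was also lost without early blastula replicate 2 (log2 fold change -2.03, adjusted p = 1) and without late blastula replicate 1 (-3.13, adjusted p = 0.0619).

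The median adult-only model was shorter than the median of other models at 20 TPM or more in the adult. The median length was 963 bases, with quartiles of 727 and 1388, against 1269 bases for the 5985 others and 1620 bases for all models. Models over 3000 bases made up 5.42% of the adult-only set (9 models) and 20.5% of the others. Models under 600 bases were also less frequent, at 14.5% of the adult-only set and 22.9% of the others, so that lengths were concentrated in the middle of the range. The difference depended on level. Between 20 and 50 TPM the medians were 1141 bases in the adult-only set and 1548 in the others, and at 200 TPM or more they were 931 and 755. These are counts over models, which are not replicates, and no test was made. Fewer counts bring a short model to 1 TPM, so the rule itself depends on length. Its part in the lengths of the list was not tested.

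Fractional adult counts were more frequent among the adult-only set than among other models at 20 TPM or more. The deposited estimated counts can be fractional where a read fits several models, but a fractional total does not show how many reads were shared. The adult count was fractional for 88 of the 166 (53.0%), against 27.4% of the 5985 other models and 35.7% of all models. At 20 to 50 TPM the shares were 51.1% of the adult-only set and 29.4% of the others, at 50 to 200 TPM 52.5% and 25.8%, and at 200 TPM or more 57.9% and 22.1%. For these 88 models at least some reads were divided between models, by an uncertain amount. TCONS_00023261, TCONS_00014186, TCONS_00021805, TCONS_00038114 and TCONS_00037999 among the 10 most abundant are of this kind. How far their levels depend on the division was not tested. Leaving out fractional counts, a choice made after seeing the data, 78 models remained.

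**Figure D5:**
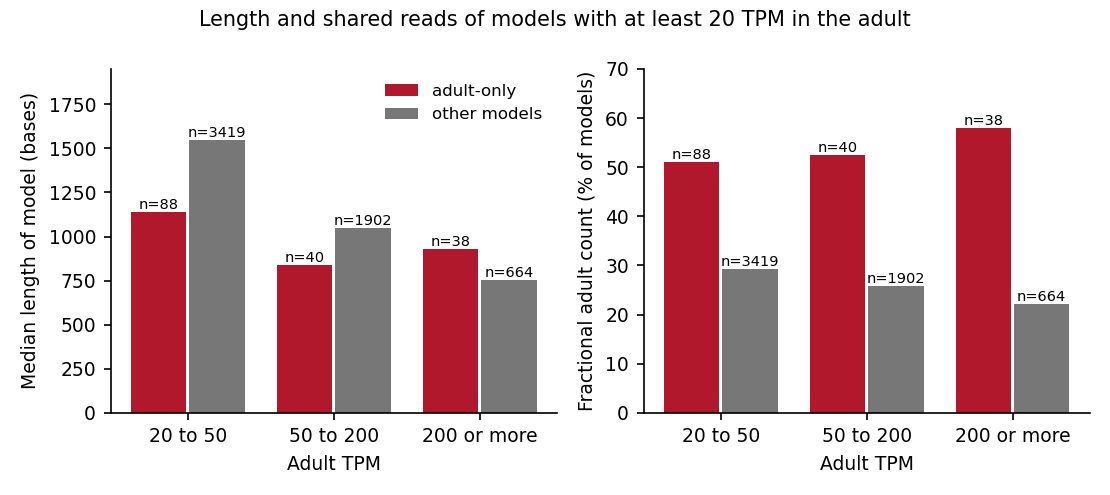
Median model length in bases (left panel) and percentage of models with a fractional adult count (right panel) for adult-only models (red) and other models (grey), in 3 ranges of adult TPM with the number of models above each bar. The red bars of the right panel lie between 51.1% and 57.9% and the grey bars between 22.1% and 29.4%, while the order of the bars in the left panel turns at 200 TPM or more.

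Members of the list often carried neighbouring identifier numbers. For 31 of the 166 (18.7%) the next or the previous number also belonged to the list, and 83 (50%) had another member within 10 numbers. Neighbouring numbers also occurred among models outside the list. Among the 5985 other models at 20 TPM or more in the adult, 2274 had an adjacent number in their own set. Within 10 numbers, 5381 of them had one. That set holds 16.69% of all models, against 0.463% for the list, so its counts are not set against those of the list. Of 241 models whose number follows or precedes that of a member, 31 (12.9%) were members, against 0.463% of all models. What the order of numbers stands for is not given in the sources used here, so that closeness in the genome or shared origin cannot be read from it. The other 210 neighbours reached 20 TPM in the adult for 13.8%, against 17.2% of all models.

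The 83 models formed 34 groups, 24 of 2 models, 6 of 3, 3 of 4 and 1 of 5, and they held 69.8% of the adult TPM of the list. The longest unbroken run was TCONS_00014185 to TCONS_00014188, whose 4 models summed to 6038 TPM in the adult, 15.9% of the whole list. None of the 4 exceeded 0.544 TPM in any other library, and the other 3 stayed at or below 0.228 TPM. Their lengths differed, with 600 bases for TCONS_00014187 and 1321 bases for TCONS_00014186, and 2 of the 4 had fractional adult counts. A group of 4 around TCONS_00038114 and TCONS_00038118 summed to 4150 TPM, and the pair that starts with TCONS_00023261 to 3399 TPM. Fractional adult counts were found for 62.7% of the models within such groups and for 43.4% of the others on the list. Whether fractional counts and neighbouring numbers depend on each other was not tested.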

How the data were processed

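RNA of 31 whole-animal libraries at 16 stages was analysed. The deposited tables, 1 per library, hold expected counts (estimated counts) and TPM for 35854 transcript models, and per the file headers also length and effective length. kallisto and edgeR are named in the submitters' processing notes, while the sources used here give no version, build or origin of the models. Stage and replicate came from the titles, and no parents or cultures are named for replicates. The p-values therefore measure only the spread among libraries, which may be technical.

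Members were selected from stage means of TPM, below a cap of 300 models. The members and the lists were chosen with earlier results of these data known. Estimated counts were rounded and entered edgeR 4.0.16 and limma 3.58.1 under R 4.3.3, with TMM scaling, filterByExpr by stage, a trended dispersion and 1 coefficient per stage over all 31 libraries. Calls used an adjusted p under 0.05 and a log2 fold change of at least 1. DESeq2 1.42.0 and other settings were alternatives. Leave-one-out fits kept the filter and dispersion of all libraries. The fit was tested on simulated counts, but no result of that test is given here. Nothing about the calls of members, which rest on traces, is read from it. No replicate pair (17 compared within stages) agreed within sampling noise, and the lowest chi-square over its degrees of freedom was 4.31. Same-numbered libraries were not treated as pairs. A count was called whole within 0.01.

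Models named are the 10 highest in the adult, the 3 others with the most adult counts and the 5 at 0 elsewhere. Also named are the 5 highest in transforming larvae and extremes of each threshold and of length. Up to 3 calls per direction and the longest run of numbers complete the list. TCONS_00006415, TCONS_00009667, TCONS_00045013 and TCONS_00054024 were named after their values were seen. Descriptions used Python 3.11.15, pandas 2.3.3, numpy 2.4.6, SciPy 1.17.1 and matplotlib 3.10.9. Ratios against 1 to 3 counts have exact conditional 95% intervals.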

Additional observations from a re-analysis of the deposited data

How the results depend on the processing

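The number of adult-only models was 284 with an adult minimum of 10 TPM, 78 with 50 TPM, 110 with other stage means below 0.5 TPM and 78 with whole adult counts, and 163 to 169 with each of the 28 libraries of replicated stages left out in turn. It stayed within 1.5 times the 166 with a limit of 2 TPM (232), with every library below 1 TPM (140) and with TMM-scaled TPM (168) or CPM (150, of which 102 were among the 166). The share of the adult library was 2.50% by counts. With a window of 10 numbers 83 members had a neighbour on the list.

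For late over early larvae, DESeq2's Wald test called 8 members, a fit restricted to the libraries compared called 5, and leaving out each library gave 11 to 17. For larvae over gastrulae the counts were 5 on only the libraries compared, 48 with 1 coefficient per side and 13 to 21 with a library left out. For gastrulae over blastulae they were 0 on only the libraries compared, 6 with 1 coefficient per side and 2 to 7 with a library left out. In these contrasts, in this order, the fits on only the libraries compared called 33.3%, 51.0% and 38.2% of all models tested. DESeq2's Wald test called 26.8% of all models for late over early larvae. Fewer members tested (7, 12 and 4) lie behind the fits on only the libraries compared, and a stage left without counts behind each loss with an adjusted p of 1. Transforming larvae over Agassiz gave 0 in all fits. Among the 15 single results, 20 of 331 refits lost the call and 0 reversed.

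The replicate block gave 0, 15, 15 and 6 calls of members in the 4 contrasts in the order above, with transforming larvae first. It called 2.83%, 31.5%, 48.9% and 28.8% of all models tested. Same-numbered libraries of different stages had correlated deviations over 0.1 in 29 of 147 pairs (median 0.009, range -0.235 to 0.749). In most pairs a shared number thus did not go with correlated deviations, while some pairs were correlated. The fits with whole adult counts, 1 coefficient per side and identifier windows were chosen after seeing the data. DESeq2's size factors moved the median log2 fold change of all models by more than 0.1 for late over early larvae (-0.01 in the main scaling, 0.14 with theirs) and for larvae over gastrulae. With 1 adult library no adult value has a replicate.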
